A study of Mus musculus with 4 samples.

Results

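The cells described here were spleen CD4+ T cells that carried RNA of both Cxcr5 (ENSMUSG00000047880) and Pdcd1 (ENSMUSG00000026285) on day 60 of experimental autoimmune encephalomyelitis (EAE), a disease in which immunization against myelin sets off T cell attacks on brain and spinal cord. A spleen barcode was chosen when it had at least 500 genes, at least 1000 unique molecular identifiers (UMIs), at most 10% mitochondrial UMIs, at most 1 productive T cell receptor beta chain (TRB) and at most 2 productive alpha chains (TRA), at least 1 UMI of each of the 2 genes, and 0 UMIs of Foxp3 and of the B cell gene Cd79a. This gave 319 cells, or 3.91% of the 8159 spleen cells that passed the same quality and chain limits, among 12123 cells kept in brain and spleen together. They are called Cxcr5+ Pdcd1+ cells below. They were set beside 5524 spleen cells with 0 UMIs of all 4 genes, called double-negative cells.

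Follicular helper T cells live in the B cell follicles of lymphoid organs and give B cells the signals that drive germinal centres and antibody maturation. The chemokine receptor CXCR5 guides them towards CXCL13 in the follicle, and PD-1, the product of Pdcd1, is an inhibitory receptor held at a high level on those in germinal centres. The repressor BCL6 sets the fate, and IL-21, IL-4 and CD40 ligand are main ways in which these cells act on B cells. In EAE, follicular helper cells belong to the lymphoid side of a response whose effector cells enter the central nervous system.

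All cells came from wild-type (WT) C57BL/6 mice with EAE, were sorted as CD4+ CD44+ GITR- cells, which enriches conventional T cells that have met antigen, and were taken from brain and spleen on day 60. There were no untreated mice, each tissue gave 1 RNA and 1 receptor library, and the labels do not say how many animals were pooled. For loading, 18718 brain and 38000 spleen cells were used, with the Chromium GEM-X 5' chemistry. The files held 8707 spleen barcodes with 65191435 UMIs and 4277 brain barcodes with 44386447 UMIs. After filtering, 8159 spleen cells (median 7159 UMIs) and 3964 brain cells (median 9843.5 UMIs) remained. Of the barcode sequences, 31 occurred in both libraries and 15 of them were kept, but 0 belonged to Cxcr5+ Pdcd1+ cells and 0 carried the same clonotype in both. Cells of 1 library are not replicates, so no test was made, and all intervals are exact 95% intervals that cover counting error only.

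The median Cxcr5+ Pdcd1+ cell held 7557 UMIs and 2939 genes, and the median double-negative cell 7223.5 UMIs and 2601 genes. The means lay further apart, at 9280 and 7368 UMIs. A rule that needs 1 UMI of each of 2 genes finds more cells where depth is higher. With all spleen cells cut by depth into 4 classes of near-equal size, 3.33%, 3.58%, 3.18% and 5.54% were Cxcr5+ Pdcd1+, from the shallowest to the deepest class. The rule genes themselves were thinly counted. Cxcr5 had 1 UMI in 148 of the 319 cells, with a median of 2 and a maximum of 17, and Pdcd1 had 1 UMI in 105 cells, with a median of 3 and a maximum of 22.

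All 3 markers of follicular helper cells that the rule did not use were found. They were chosen with earlier results of these data known, so they describe the cells and are no independent check of the label. Tox2 (ENSMUSG00000074607), a DNA-binding protein of the TOX family that promotes follicular helper differentiation, stood at 205 CPM (UMIs scaled to the same total per group; 189 to 222) in Cxcr5+ Pdcd1+ cells and at 5.68 CPM in double-negative cells. With every cell thinned to 3000 UMIs, which left out 7 Cxcr5+ Pdcd1+ and 391 double-negative cells as too shallow, Tox2 was detected in 39.1% (33.7 to 44.8%) and 1.17% of cells, against 59.2% and 2.84% before thinning. Angptl2 (ENSMUSG00000004105), a secreted angiopoietin-like protein, stood at 93.9 and 2.19 CPM, with thinned shares of 18.9% and 0.604%. Bcl6 (ENSMUSG00000022508) stood at 136 and 19.6 CPM, with thinned shares of 26.3% and 5.59%. In 141 spleen B cells of the same library, defined by at least 3 Cd79a UMIs and no receptor chain, 0 of the 135 cells deep enough for thinning (median of all 141 cells 5450 UMIs) had a UMI of Tox2 or Angptl2, which allows a share of up to 2.22%, and 10.4% had one of Bcl6, which B cells also use. Of the 319 Cxcr5+ Pdcd1+ cells, 247 had at least 1 UMI of Tox2, Angptl2 or Bcl6, 50 had all 3, and 72 had none of them.

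The regulators of the follicular helper state were higher in Cxcr5+ Pdcd1+ cells than in double-negative cells nearly throughout. A gene was counted as higher or lower when the CPM of the cells summed per group differed at least 1.5-fold and the higher group held at least 25 CPM. By this measure 955 of 6451 genes (14.8%) were higher in Cxcr5+ Pdcd1+ cells and 375 (5.81%) lower, with a median log2 ratio of 0.17 over all 6451. Of 12 regulator genes, 10 were higher and 1 was lower, with a median log2 ratio of 2.10. The basic helix-loop-helix factor gene Ascl2, which can induce Cxcr5, stood at 29.7 CPM in 51 Cxcr5+ Pdcd1+ cells and at 0.0983 CPM in 3 double-negative cells. Tox was found in 297 of the 319 cells and stood at 1095 against 201 CPM. Pou2af1, the OCT coactivator also known from B cells, was 11.7-fold higher (9.72 to 14.1), Bcl6 6.97-fold (6.17 to 7.86), and Maf, which drives Il21 and Il4, 4.29-fold (3.95 to 4.65). Batf, Id3, Irf4 and Nfatc1 were also higher. Of the pair of HMG-box factors that prepare T cells for the follicular fate, Lef1 was lower, at 229.7 against 661 CPM, while Tcf7 stood at 969 and 746 CPM and was counted in neither direction.

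Genes for surface molecules and help to B cells showed the same direction. Of 22 genes in this list, 21 reached 25 CPM, 17 were higher and 0 were lower, with a median log2 ratio of 1.65. Taken with the regulators, 27 of 33 measured genes were higher and 1 lower, with a median of 1.89, and these counts were the same under both other scalings tried. Tigit, an inhibitory receptor that marks strongly helping cells, stood at 270.2 CPM in Cxcr5+ Pdcd1+ cells and 15.9 CPM in double-negative cells. Tbc1d4, a Rab GTPase regulator, was found in 274 of the 319 cells and was 10.4-fold higher (9.81 to 11.1). Izumo1r, which encodes folate receptor 4, stood at 814 against 172 CPM, and Cd200 at 119 against 18.7 CPM. Costimulation was represented by Tnfrsf4 (OX40), at 310.4 against 40.3 CPM, and by Icos, at 267 against 142 CPM. Sh2d1a, the adaptor SAP that steadies the contact of T and B cells, stood at 406 against 135 CPM, its receptor gene Slamf6 at 527 against 215 CPM, and the HVEM receptor gene Btla at 248 against 112 CPM. Cd40lg, the gene of CD40 ligand, stood at 182 and 144 CPM and did not pass the 1.5-fold limit, nor did Cd84, Il6ra and Il21r. S1pr2, which holds cells in the germinal centre, stayed below 25 CPM, at 21.6 CPM (16.6 to 27.6) and 5.73 CPM.

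**Figure D1:**
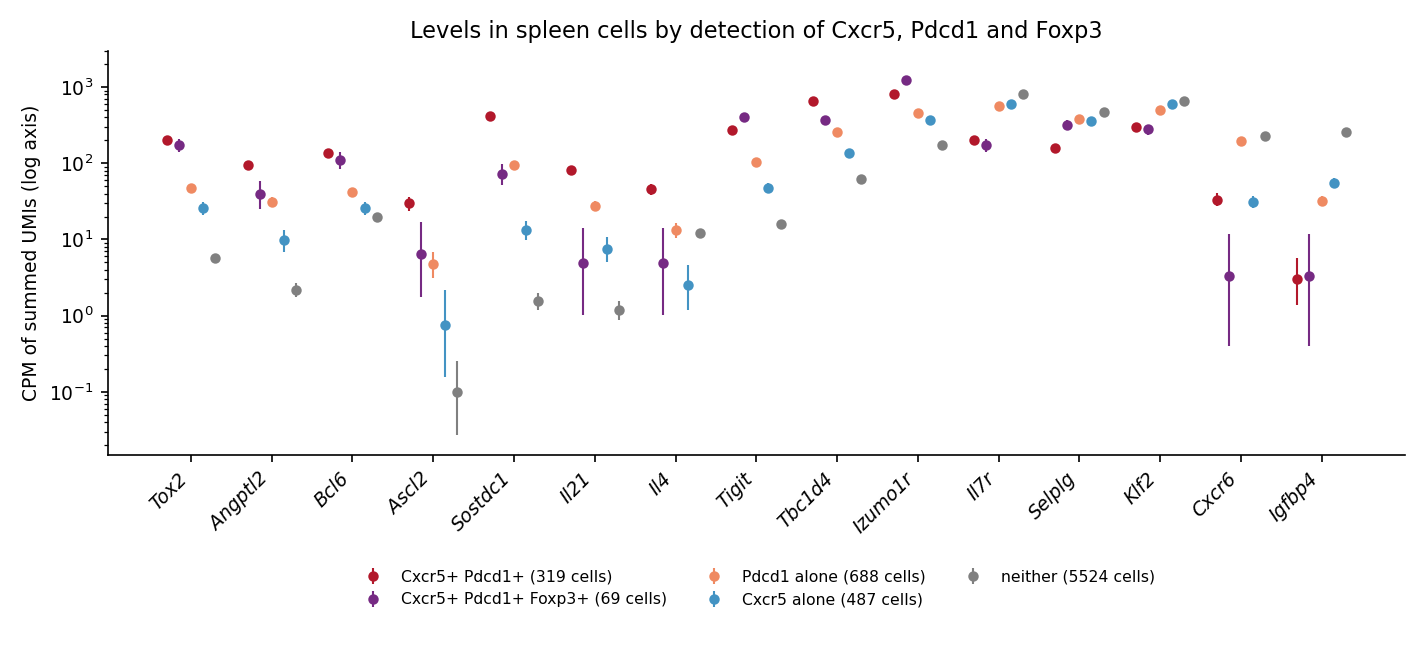
Level in CPM (log axis) of 15 genes in 5 groups of spleen cells; each point is the UMIs of all cells of a group summed, with its exact 95% counting interval. Tox2 runs from 205 CPM in Cxcr5+ Pdcd1+ cells to 5.68 CPM in double-negative cells, with Pdcd1-alone (47.1) and Cxcr5-alone (25.7) cells between, and Il7r runs the other way, from 200.3 to 805 CPM.

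Few cytokine genes of helper cells reached the limit of 25 CPM. Of 12 cytokine genes, 5 did, and all 5 of these were higher in Cxcr5+ Pdcd1+ cells. Il21, Il4, Ifng and Il2 were under 25 CPM in double-negative cells and passed only through the Cxcr5+ Pdcd1+ cells. The count was thus largely set by the limit and is only a description. Il21 (ENSMUSG00000027718) stood at 82.4 CPM (72.4 to 93.4) and was found in 77 of 319 cells, against 1.18 CPM and 24 of 5524 double-negative cells, a ratio of 69.9 (51.1 to 97.3). Il4, made by helper cells for class switching, stood at 45.3 against 12.1 CPM and was found in 35 cells, 1 of which held 26.9% of its UMIs. Ifng stood at 49.7 against 18.4 CPM. Il2 and Tnf were 78.0 and 103 CPM against 9.36 and 29.4 CPM, but 1 cell alone held 45.5% of the Il2 UMIs and 33.2% of the Tnf UMIs. Il17a, the signature cytokine of Th17 cells, had 0 UMIs in the 319 cells, which allows up to 1.01 CPM, and 0.516 CPM in double-negative cells. Both Il21 and Il4 RNA were held by 12 cells. Il4 was detected in 15.6% (8.32 to 25.6%) of the Il21-positive and 9.5% (6.12 to 13.9%) of the other Cxcr5+ Pdcd1+ cells, intervals that overlap. Both genes were sparse, so the small joint count cannot tell whether different cells made them. Bcl6 was detected in 68.8% (57.3 to 78.9%) of Il21-positive and 40.9% (34.7 to 47.4%) of the other cells, and Tox2 in 80.5% and 52.5%, where the Il21-positive cells were the deeper ones, with a median of 8308 against 7470 UMIs.

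Genes that oppose the follicular fate or keep T cells recirculating were lower. Of 11 measured antagonists, 8 were lower and 0 higher (9 lower under both other scalings), with a median log2 ratio of -1.14. Il7r, the receptor for the survival cytokine IL-7, stood at 200.3 CPM in Cxcr5+ Pdcd1+ cells and 805 CPM in double-negative cells, and Id2, an inhibitor of E proteins, at 152 and 573 CPM. Selplg, which encodes the selectin ligand PSGL-1, had a ratio of 0.332 (0.302 to 0.364). Klf2, the factor that activates S1pr1, stood at 301 and 664 CPM. Il2ra, the alpha chain of the IL-2 receptor, was at 22.3 and 47.8 CPM. Without the invariant NKT cells described below, 8 of 11 antagonists were lower and 1, Il2rb, was higher. Foxo1 was then among the lower genes and Il2ra was not. Of 15 recirculation and naive genes, several of which are also in the antagonist list, 13 were lower and 0 higher, with a median of -1.47. Ccr7, which guides cells into the T zone, stood at 124 and 368 CPM, and the chromatin organizer gene Satb1 at 82.4 and 564 CPM. Igfbp4 (ENSMUSG00000017493), an insulin-like growth factor binding protein of naive-like cells, was among the sparsest of them, found in 5 of 319 cells and 1890 of 5524 double-negative cells, at 3.04 and 259 CPM.

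Genes of other helper lineages were mostly lower. Of 13 measured Th1 genes, 8 were lower and 3 higher (9 lower and 2 higher under both other scalings). Without the invariant NKT cells described below, which are mostly double-negative, 5 of 11 were lower and 3 higher. Nkg7 was then counted in neither direction, and Il12rb2 and Fasl fell under the 25 CPM limit. Those lower included Il12rb2 (ratio 0.122), Il18r1 (0.234), Cxcr6 (33.4 against 226 CPM) and Ccl5, which was found in only 14 Cxcr5+ Pdcd1+ cells, 1 of which held 47.9% of its UMIs. On the other side were Cxcr3 (295 against 145 CPM), Ifng (49.7 against 18.4 CPM) and Stat4. Under both other scalings Stat4 was no longer counted as higher. All 3 measured Th17 genes were lower: Tmem176b (2.70 against 60.9 CPM), Tmem176a (3.72 against 43.1 CPM) and Rora (ratio 0.623). The log2 ratio of Rora was -0.35 without invariant NKT cells and -0.43 without cells with Mki67 or Top2a, and in both it was counted in neither direction. Among 6 measured cytotoxic genes, Eomes (44.6 against 6.44 CPM) and Gzmk (35.5 against 5.58 CPM) were higher, each found in 27 cells, while Prf1, Nkg7, Ccl5 and Ctsw were lower. Eomes and Gzmk fell under the 25 CPM limit among cells with at least 2 UMIs of each rule gene, with log2 ratios of 1.66 and 1.75 there in place of 2.79 and 2.67. Without invariant NKT cells Prf1 fell under that limit and Nkg7 was no longer counted as lower, at a log2 ratio of -0.18. Although the rule removed Foxp3, 4 of 7 measured regulatory genes were higher, namely Ikzf2 (Helios; 535 against 69.9 CPM), Nrp1 (201 against 43.3 CPM), Ctla4 (380.4 against 102 CPM) and the integrin gene Itgb8 (93.9 against 2.70 CPM). Tnfrsf18, which encodes GITR, the marker used to remove cells in the sort, stood at 166 and 116 CPM.

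**Figure D2:**
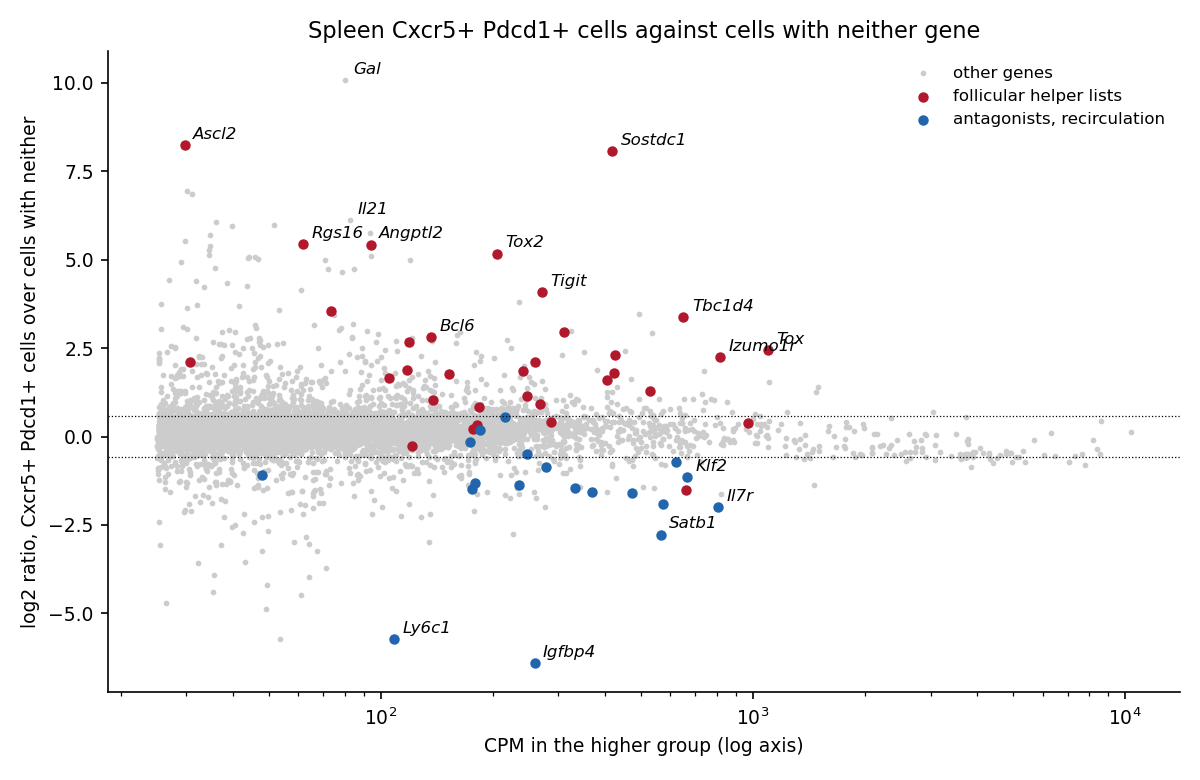
Log2 ratio of Cxcr5+ Pdcd1+ to double-negative spleen cells against the higher of the 2 CPM values (log axis), 1 point per measured gene, with the gene lists in colour. Follicular helper genes sit mostly above the all-gene median of 0.17 and recirculation genes below it.

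The genes with the highest ratios, among those with at least 50 CPM, joined known helper genes with less familiar ones. They were ranked by the interval bound nearest 1. Sostdc1 (ENSMUSG00000036169), a secreted antagonist of BMP and Wnt signals, stood at 419 CPM (396 to 442) in 78 of 319 cells and at 1.55 CPM in 13 of 5524 double-negative cells, a ratio of 270.4. Tox2 was found in 87.2% (77.7 to 93.7%) of the Sostdc1-positive and 50.2% (43.7 to 56.7%) of the other Cxcr5+ Pdcd1+ cells, where the Sostdc1-positive cells were the shallower ones (median 7180 against 7828 UMIs). Sostdc1 was found in 54.3% of the Il4-positive and 20.8% of the other cells, where the Il4-positive cells were the deeper ones (median 9002 against 7464.5 UMIs). Among the next were Il21, Angptl2, the G protein regulator gene Rgs16 (43.4-fold), Tox2 (36.1-fold), Itgb8, the calcium channel gene Cacna1d (31.9-fold), the zinc finger gene Tshz2 (32.1-fold), Lag3 (26.4-fold), an inhibitory receptor, and Ralyl (26.7-fold, in 24 cells). The first rank went to Gal (ENSMUSG00000024907), the gene of the neuropeptide galanin, with 80.1 CPM against 0 UMIs, but it was found in 4 cells, 1 of which held 78.1% of its UMIs. At the other end stood Igfbp4, Ly6c1 (2.03 against 108 CPM, a gene with near-identical copies), Pdlim4, Tmem176b, Atp8a2, Ccr2 (5.40 against 71.4 CPM), St8sia6, Satb1, Ctsw, Cxcr6, Il12rb2 and Itgb3, with ratios from 0.0117 to 0.148.

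Genes of recent stimulation were also higher, and so were cell cycle genes, most of which lost their call when depth was matched. Of 9 measured genes induced early by the T cell receptor, 7 were higher and 0 lower, with a median log2 ratio of 2.28, among them Nr4a1 (137 against 21.1 CPM), Egr1 (128 against 26.3 CPM) and Tnfrsf9 (89.2 against 15.8 CPM). Irf4 and Nfatc1, counted among the 7, are also in the list of follicular helper regulators. Cd69 and Myc were counted in neither direction. Of 7 measured inhibitory receptors, 5 were higher and 0 lower. Of these 5, Btla, Cd200 and Tigit are also in the surface list and Ctla4 is in the regulatory list, so the lists overlap. All 14 cell cycle genes were higher (12 of 13 under both other scalings), with a median of 2.16. With double-negative cells weighted to the depth of the Cxcr5+ Pdcd1+ cells only 3 of 14 were higher, namely Ccnb2, Mki67 and Tyms, and the log2 ratio of Mki67 was 0.71 in place of 2.51. Averaged over the CPM of single cells, 8 of 9 were higher. Without cells that held Mki67 or Top2a UMIs, 2 were measured and 0 were higher. Both genes are in the cell cycle list, so this loss follows from the choice of cells and is no further check. Mki67 stood at 224 against 39.3 CPM, but 1 cell held 20.0% and 1 clonotype 32.2% of its UMIs. A UMI of Mki67 or Top2a was found in 31.0% (26.0 to 36.4%) of Cxcr5+ Pdcd1+ cells and 10.6% of double-negative cells. After thinning, a UMI of Mki67 was found in 10.6% (7.39 to 14.5%) and 3.04% (2.59 to 3.55%) of them. Of 10 glycolysis genes, 6 were higher and 0 lower (3 higher under both other scalings), led by Hif1a at 452 against 85.3 CPM. Stress genes stood mostly level, with 2 of 14 higher and 1 lower, and of 9 interferon-response genes 2 were higher and 2 lower (4 lower under both other scalings), with Ifi27l2a at 1472 against 620.1 CPM.

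RNA of other cells was measured beside these results. The summed level of 13 B cell genes was 341.8 CPM in Cxcr5+ Pdcd1+ cells and 342.0 CPM in double-negative cells, 6 of the 13 had 0 UMIs in the former, and the defining gene Ms4a1 was among those 6. Most of the sum was Ighm, found in 67.1% and 63.9% of cells, or 47.8% and 46.7% after thinning, against 95.6% of the B cells. Of the 2 B cell genes that reached 25 CPM, Cd74 was lower in Cxcr5+ Pdcd1+ cells and 0 were higher. The 10 myeloid genes summed to 105 and 97.5 CPM, with 5 of the 10 at 0 in Cxcr5+ Pdcd1+ cells. Invariant NKT cells, read from the TRAV11-TRAJ18 alpha chain, made up 0.313% (1 cell) of Cxcr5+ Pdcd1+ and 10.8% of double-negative cells, and their factor gene Zbtb16 stood at 2.70 and 32.3 CPM. Without them the count was 1046 genes higher and 362 lower. Ribosomal protein genes held 18.8% of the UMIs of Cxcr5+ Pdcd1+ cells and 26.6% of those of double-negative cells. The split between directions moved with scaling: TMM factors gave 577 genes higher and 691 lower, and median-of-ratios factors 590 and 667, so that 45.5% and 46.9% of counted genes were higher in place of 71.8%.

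The helper programme was uneven from cell to cell. Over the 34 genes of both helper lists, the median thinned Cxcr5+ Pdcd1+ cell had 14 detected (interquartile range 10 to 17), the median double-negative cell 6 (5 to 8), and the median B cell 4. Without thinning, the medians were 20 and 10 for Cxcr5+ Pdcd1+ and double-negative cells. At the edge of the rule, the 64 cells with exactly 1 UMI of each rule gene had a median of 10.5 genes, and just outside it the cells with Pdcd1 alone had 9 and those with Cxcr5 alone 8. The 130 cells with at least 2 UMIs of each had a median of 16. Set beside the 64 cells at the edge, with the limit raised to at least 50 CPM as in all further comparisons, these 130 cells had 11.4% of 4144 genes higher and 6.9% lower. Of 31 measured helper genes, 20 were higher and 0 lower, with a median log2 ratio of 1.13 against 0.06 for all genes. Il21 stood at 139 against 12.8 CPM, Bcl6 at 200.4 against 49.4 CPM and Sostdc1 at 565 against 76.9 CPM, while Klf2 stood at 94.4 against 679 CPM and Il7r at 83.5 against 369.8 CPM. Ccl5 stood at 0.780 against 849 CPM, the latter in 4 of the 64 cells. The 130 cells were deeper, with a median of 8275 and a mean of 9863 UMIs against 7516.5 and 8535, and the part of depth in these differences was not tested.

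**Figure D3:**
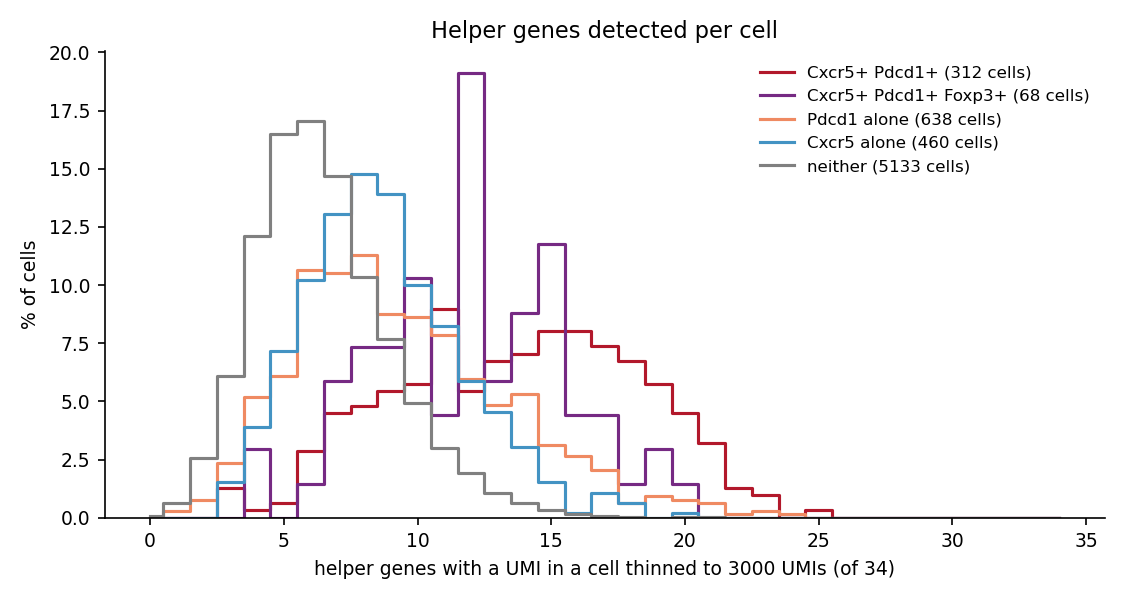
Share of cells (%) against the number of the 34 helper genes detected in a cell thinned to 3000 UMIs, for 5 groups of spleen cells. The Cxcr5+ Pdcd1+ cells peak to the right of the double-negative cells, with medians of 14 and 6 genes, and both curves overlap.

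Cells that carried 1 of the 2 rule genes lay between. The 688 cells with Pdcd1 but no Cxcr5 UMI had 0 of 31 measured helper genes higher and 22 lower than Cxcr5+ Pdcd1+ cells, where 3.54% and 3.42% of 4011 genes were counted higher and lower. Tox2 stood at 47.1 CPM in them, Bcl6 at 42.4 CPM and Il21 at 27.7 CPM. Set beside double-negative cells, the same cells had 18 of 26 helper genes higher and 1 lower, where 6.98% of 3866 genes were higher and 1.89% lower (4.67% and 3.81% under median-of-ratios scaling, with 16 and 1 helper genes). They also held more of the Th1 genes than Cxcr5+ Pdcd1+ cells did, with 7 of 11 higher and 0 lower, among them Ccl5 (815 against 197 CPM) and Cxcr6 (194 against 33.4 CPM). The 487 cells with Cxcr5 alone had 1 of 31 helper genes higher and 22 lower than Cxcr5+ Pdcd1+ cells (3.9% of 3971 genes higher, 10.2% lower, or 6.60% and 6.62% under median-of-ratios scaling, with 1 and 20 helper genes), with Tox2 at 25.7 CPM, Il21 at 7.49 CPM and Satb1 at 403 against 82.4 CPM. They were nearer to double-negative cells, from which 1.84% of 3637 genes were higher and 1.48% lower (1.40% and 1.90% under median-of-ratios scaling), with 10 of 22 helper genes higher and 0 lower. Since a UMI can be missed in a cell that holds the RNA, the groups with 1 gene may hold cells of the group with both.

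The 69 cells that met the rule but for a Foxp3 UMI, the pattern of follicular regulatory cells, shared part of the helper programme. Of 31 measured helper genes, 4 were higher and 10 lower in them than in Cxcr5+ Pdcd1+ cells. The other 17 were counted in neither direction, and the median log2 ratio was -0.27. Helper genes were thus counted more often in each direction than all 4163 genes (6.32% higher, 5.64% lower). Tox2 stood at 172 CPM, Tigit at 400.3 CPM and Izumo1r at 1240 CPM. The cytokine genes set them apart: Il21 stood at 4.90 CPM (1.01 to 14.3) against 82.4 CPM. Il2 had 0 UMIs in them, which allows up to 4.90 CPM, against 78.0 CPM, a level to which 1 cell gave a large part, as stated above. Il2ra, at 141 against 22.3 CPM, and Cd74, at 172 against 17.9 CPM, were higher. Ighm, whose RNA comes from B cells, also stood higher in them, at 508 against 284 CPM, and whether carried-over B cell RNA had a part in the Cd74 level was not tested.

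Cxcr5+ Pdcd1+ cells were more often members of expanded clones than double-negative cells. A clonotype joined cells with the same V genes and the same nucleotides of the complementarity-determining region 3 (CDR3), the part of each chain that spans the gene junction, in both chains. Paired chains were recovered in 292 of the 319 cells (91.5%) and in 83.7% of double-negative cells. The 292 cells fell into 241 clonotypes. Of these cells, 113 (38.7%, 33.1 to 44.5%) belonged to a clonotype of at least 2 spleen cells, against 8.50% (7.72 to 9.35%) of double-negative cells, 7.95% of Cxcr5-alone cells, 26.5% of Pdcd1-alone cells and 20.0% of the Foxp3-positive cells. At a minimum of 3 cells, the shares were 23.6% and 4.09%, and at 5 cells 13.7% and 2.42%. Cells of 1 clonotype share its size, so these intervals on cells are too narrow. Counted by clonotype, 62 of 241 (25.7%, 20.3 to 31.7%) held at least 2 spleen cells, against 3.93% (3.38 to 4.55%) of double-negative clonotypes. The clones were numerous rather than large. The largest held 10 spleen cells, while the largest with double-negative cells held 60. Without cells that had a UMI of Mki67 or Top2a, the share was 26.9%, against 5.88% of double-negative cells. Clonotype sizes were counted again over the cells left, which by itself can lower both shares.

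**Figure D4:**
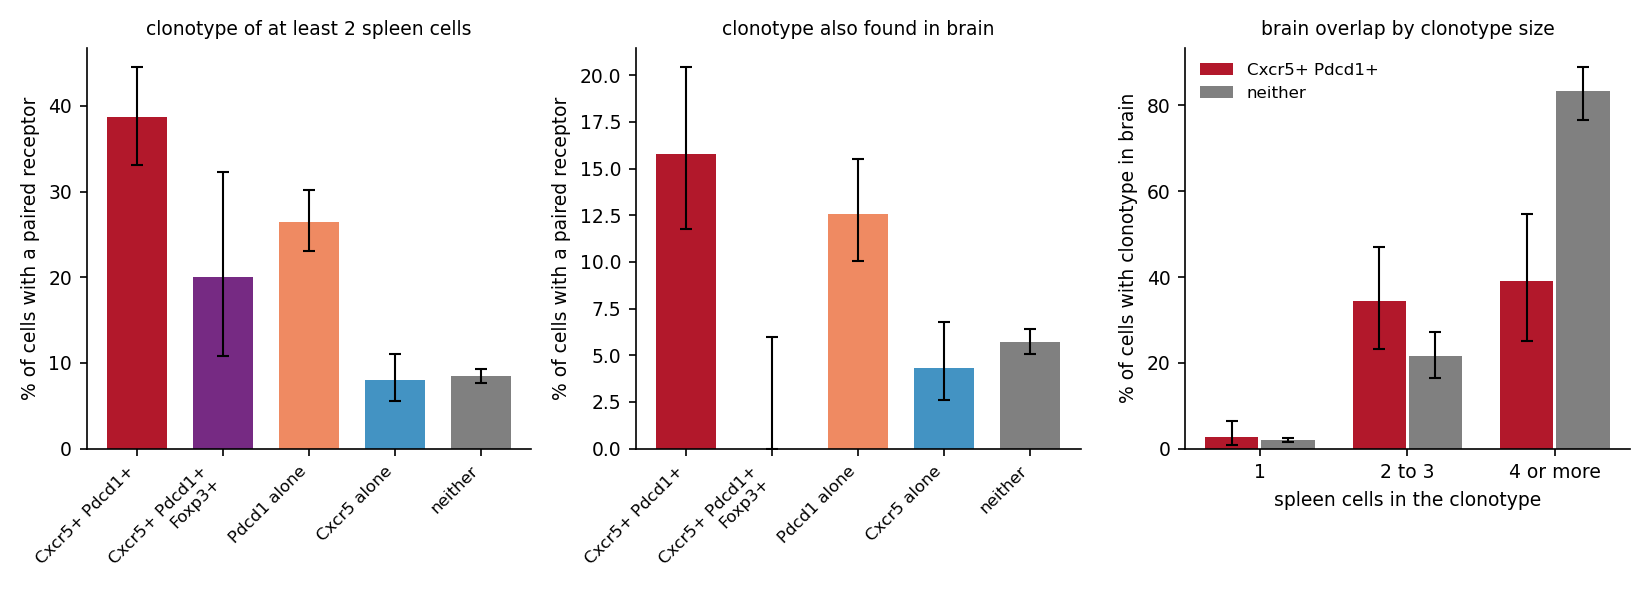
Share of paired cells (%) in clonotypes of at least 2 spleen cells and in clonotypes also found in brain, for the spleen groups. The last panel gives the share found in brain by clonotype size. Bars start at 0 and lines are exact 95% counting intervals, which treat the cells of a clonotype as independent. Cxcr5+ Pdcd1+ cells stand at 38.7% and 15.8%, double-negative cells at 8.50% and 5.71%, and in clonotypes of at least 4 cells the order is reversed, at 39.1% and 83.4%.

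The largest clonotype was 1 of 4 clonotypes built on the same alpha chain. Clonotype 1 held 10 spleen cells, 7 of them Cxcr5+ Pdcd1+ and 3 with Pdcd1 alone, and was not found in brain. All 7 had a Tox2 UMI and 6 had an Il21 UMI. Its alpha CDR3 nucleotides and V gene call (TRAV14N-1, a segment with near-identical copies) recurred in clonotype 9, with 3 spleen cells that were all Cxcr5+ Pdcd1+, and in clonotype 169, with 1. In the whole spleen library the chain was found in 15 cells of 4 clonotypes, 11 of them Cxcr5+ Pdcd1+, 3 with Pdcd1 alone and 1 double-negative, and in 0 brain cells. Clonotype 5, with 4 Cxcr5+ Pdcd1+ cells among 5 in spleen and 1 such cell in brain, carried an alpha chain that differs by the substitution G13C, counted from 1 at the CDR3's first base. The beta chains of clonotypes 1 and 9 used the same V segment, TRBV2, had the same length and differed at 13 bases. Sequences are CDR3 nucleotides from the deposited receptor tables, shown to compare these receptors. Capitals mark the bases that differ between the alpha chains of clonotypes 1 and 5 and between the beta chains of clonotypes 1 and 9.
clonotype 1 alpha (TRAV14N-1, TRAJ13): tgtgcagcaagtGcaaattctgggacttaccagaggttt
clonotype 5 alpha (TRAV14N-1, TRAJ13): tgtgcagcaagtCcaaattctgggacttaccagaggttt
clonotype 1 beta (TRBV2, TRBJ1-1): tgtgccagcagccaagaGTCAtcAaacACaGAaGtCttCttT
clonotype 9 beta (TRBV2, TRBJ1-4): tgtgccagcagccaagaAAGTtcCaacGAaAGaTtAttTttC

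A similar pair reached the brain. Clonotypes 42 and 43 used the same V and J segments in both chains and CDR3s of the same lengths. Their alpha chains differ by A12G, A13T and T14C, and their beta chains at 7 bases. Each held 1 Cxcr5+ Pdcd1+ and 1 double-negative cell in spleen and 1 cell in brain, with Cxcr5 alone for clonotype 42 and both rule genes for clonotype 43. Capitals again mark the bases that differ within the pair.
clonotype 42 alpha (TRAV12-1, TRAJ39): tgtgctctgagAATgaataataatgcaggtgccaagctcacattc
clonotype 43 alpha (TRAV12-1, TRAJ39): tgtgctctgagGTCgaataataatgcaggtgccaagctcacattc
clonotype 42 beta (TRBV20, TRBJ1-2): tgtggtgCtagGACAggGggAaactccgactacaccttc
clonotype 43 beta (TRBV20, TRBJ1-2): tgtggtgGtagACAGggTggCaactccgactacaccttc

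Over all clonotypes of Cxcr5+ Pdcd1+ cells, some V segments stood above their share in double-negative cells. TRAV7D-2 was used by 8.71% (5.47 to 13.0%) of the 241 clonotypes and by 3.25% (2.75 to 3.82%) of the 4401 double-negative clonotypes, with 2.58% for Pdcd1-alone and 3.18% for Cxcr5-alone clonotypes. TRBV5 stood at 13.3% against 8.04%, TRBV2 at 11.2% against 7.09% and TRBV20 at 7.47% against 4.07%. TRAV11, the segment of invariant NKT cells, was in 0.415% and 13.4% of clonotypes. These clonotypes are part of the totals behind the other shares, which lowers the double-negative shares of segments that they seldom use. These segments were picked from all segments by their difference, so the values are a description.

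Clone mates of Cxcr5+ Pdcd1+ cells mostly carried Pdcd1. The 62 clonotypes with at least 2 spleen cells held 194 cells. Of these, 113 were Cxcr5+ Pdcd1+, 52 had Pdcd1 alone, 16 were double-negative, 6 had Cxcr5 alone, 3 had Foxp3 UMIs with both rule genes, 3 had Foxp3 UMIs without both, and 1 met the rule but for a Cd79a UMI. In 27 clonotypes at least 2 cells were Cxcr5+ Pdcd1+, 78 cells in all. When each cell of an expanded clonotype was paired with every clone mate, the mate was Cxcr5+ Pdcd1+ in 56.4% of pairs for Cxcr5+ Pdcd1+ cells, 11% for Pdcd1-alone, 3.09% for Cxcr5-alone and 0.551% for double-negative cells. Such pairs give large clonotypes more weight, and 1 clonotype of 60 spleen cells gave 2773 of the 3627 pairs of double-negative cells. Without it, and without the clonotype of 10 cells that gave Cxcr5+ Pdcd1+ cells the most pairs, the shares were 54.2%, 24.7%, 9.76% and 2.34% in the same order. With each cell weighted equally they were 51.9%, 20.7%, 14.2% and 3.06%. Both were chosen after seeing the data. The 16 double-negative clone mates held more helper RNA than other paired double-negative cells, with a median of 10.5 of the 34 helper genes after thinning against 6. The 2 groups also differed otherwise. Mki67 or Top2a UMIs were found in 62.5% of the clone mates and 10.7% of the others. All 16 were in expanded clonotypes by their choice, against 8.19%, and 0 were invariant NKT cells, against 12.9%. The part of these differences in the helper RNA was not tested. In them 15 of 23 measured helper genes were higher and 1 lower, where 28.1% of 4177 genes were higher and 11% lower (under median-of-ratios scaling 13 helper genes were higher and 3 lower, where 15.3% of all genes were higher and 21.7% lower). Tigit stood at 154 against 14.8 CPM and Il21 at 48.7 against 0.583 CPM, from 3 of the 16 cells.

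**Figure D5:**
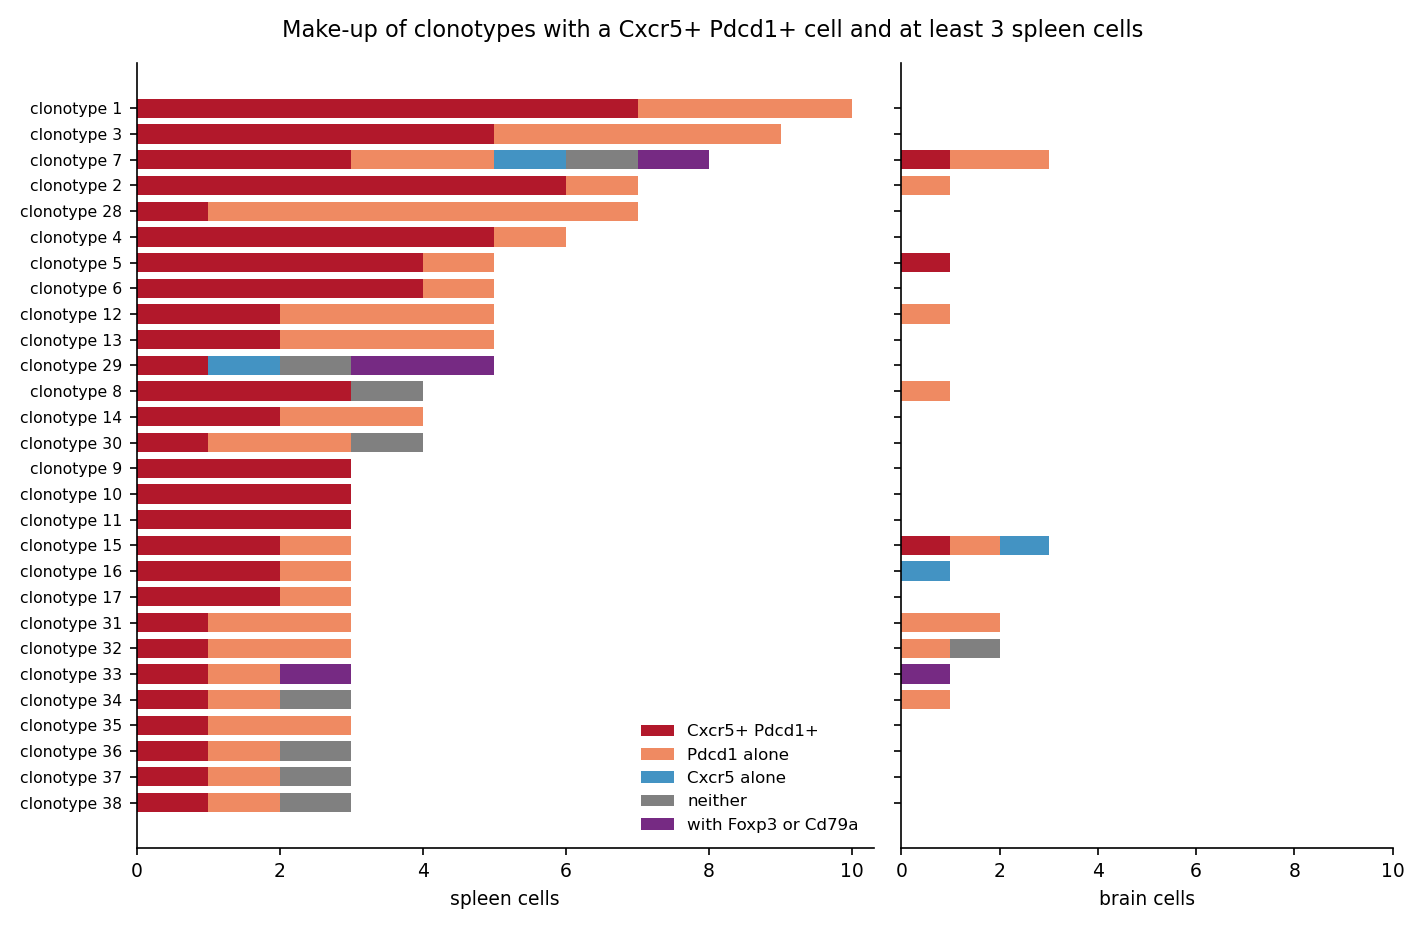
Number of spleen cells (left) and brain cells (right) in each of the 28 clonotypes that hold a Cxcr5+ Pdcd1+ cell and at least 3 spleen cells, coloured by the UMIs of the rule genes. Pdcd1-alone cells occur in 23 of the 28, double-negative spleen cells in 8, and brain cells in 11.

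Clonotypes of Cxcr5+ Pdcd1+ cells were found in brain more often than those of double-negative cells. Of the 292 paired cells, 46 (15.8%, 11.8 to 20.4%) belonged to a clonotype with at least 1 brain cell, against 5.71% (5.06 to 6.42%) of double-negative, 4.34% of Cxcr5-alone and 12.6% of Pdcd1-alone cells. Of 60 paired Foxp3-positive cells with both rule genes, 0 did, which allows a share of up to 5%. Counted by clonotype, 26 of 241 (10.8%, 7.17 to 15.4%) and 3.07% of double-negative clonotypes were in both tissues. Larger clonotypes are more likely to be seen in a second library, so the share was split by spleen size. For clonotypes of 1 spleen cell it was 2.79% (5 of 179 cells, 0.913 to 6.40%) against 2.03% (1.63 to 2.51%), intervals that overlap. For sizes of 2 and 3 it was 34.3% (23.2 to 46.9%) against 21.5% (16.5 to 27.2%), which also overlap. For sizes of at least 4 the order was reversed, with 39.1% (18 of 46 cells, 25.1 to 54.6%) against 83.4% (126 of 151 cells, 76.5 to 89.0%). That class held 14 clonotypes with Cxcr5+ Pdcd1+ cells, 5 of them in brain, and 28 with double-negative cells, 20 of them in brain, of which 1 alone held 47 of the 151 cells. Presence in brain belongs to the clonotype, but the intervals on cells treat each cell as independent. For clonotypes of more than 1 cell they are therefore too narrow. With at least 2 brain cells asked for, the shares were 3.42% and 3.74%.

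Some examples, chosen after their values were seen, show how the shared clonotypes were spread. Clonotype 2 held 6 Cxcr5+ Pdcd1+ cells among 7 in spleen and 1 brain cell with Pdcd1 alone. Clonotype 7 held 3 among 8 in spleen and 3 brain cells, 1 with both rule genes and 2 with Pdcd1 alone, of which 2 had Tox2 and 3 had Ifng RNA. Clonotype 15 held 2 among 3 in spleen and 3 brain cells, 1 each with both genes, Pdcd1 alone and Cxcr5 alone, and all 3 had RNA of Izumo1r and Tcf7. Clonotype 18 had 2 in spleen, both Cxcr5+ Pdcd1+, and 6 in brain, 5 double-negative and 1 with Pdcd1 alone, all 6 with Cxcr6, the gene of a tissue-homing chemokine receptor. In these sequences of clonotypes found in both tissues, capitals mark the first and the last codon of the CDR3.
clonotype 2 alpha (TRAV9-1, TRAJ40): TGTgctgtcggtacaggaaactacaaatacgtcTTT
clonotype 2 beta (TRBV3, TRBJ2-5): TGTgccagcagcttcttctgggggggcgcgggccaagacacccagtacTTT
clonotype 7 alpha (TRAV14D-3-DV8, TRAJ4): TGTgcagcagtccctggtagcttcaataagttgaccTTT
clonotype 7 beta (TRBV20, TRBJ2-4): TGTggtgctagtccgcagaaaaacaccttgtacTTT
clonotype 15 alpha (TRAV7D-2, TRAJ12): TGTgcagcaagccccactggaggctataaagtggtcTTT
clonotype 15 beta (TRBV15, TRBJ2-7): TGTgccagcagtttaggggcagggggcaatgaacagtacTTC
clonotype 18 alpha (TRAV3-4, TRAJ53): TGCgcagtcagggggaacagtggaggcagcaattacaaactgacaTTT
clonotype 18 beta (TRBV31, TRBJ1-3): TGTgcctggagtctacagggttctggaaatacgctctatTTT

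The brain relatives of these spleen cells held more helper RNA than other brain cells. The 26 shared clonotypes held 38 brain cells, of which 19 had Pdcd1 alone, 8 neither gene, 5 Cxcr5 alone, 5 both, and 1 both with Foxp3. The share with both rule genes and no Foxp3 was 13.2% (4.41 to 28.1%), against 2.26% (1.17 to 3.91%) of 531 brain cells of other clonotypes found in spleen and 1.52% of 2569 cells of clonotypes not found there. The median relative had 9 of the 34 helper genes after thinning, and the median of the other paired brain cells was 6. Of 25 measured helper genes, 11 were higher and 3 lower in the relatives than in all other paired brain cells, where 12.4% of 3952 genes were higher and 6.88% lower. Under median-of-ratios scaling 10 and 4 helper genes were, beside 7.72% and 10.5% of all genes. By list, under that scaling, 2 of 7 regulators were higher and 2 lower. Of 18 genes for surface molecules and B cell help, 8 were higher and 2 lower, so the excess lay in the latter list. Izumo1r stood at 301 CPM in the relatives, 53.5 CPM in brain cells of other shared clonotypes and 88.8 CPM in all others, and Tbc1d4 at 267, 92.2 and 101 CPM. Il17a and Tmem176b had 0 UMIs in the 38 relatives, against 236 and 234 CPM in the other paired brain cells. Ifng was present in the relatives, at 264 CPM, against 644 CPM in other shared clonotypes. Il10 stood at 83.2 against 6.00 CPM, but 1 cell held 48.3% of its UMIs, and 94.7% of the Sostdc1 UMIs came from 1 cell.

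The rule also found 59 brain cells with Cxcr5 and Pdcd1, 1.49% of the brain cells kept. They were set beside 2726 brain double-negative cells, and 12.5% of 3962 genes were higher in them and 6.94% lower (8.32% and 10.1% under median-of-ratios scaling). Of 30 measured helper genes, 23 were higher and 1 lower in the brain Cxcr5+ Pdcd1+ cells (22 and 3 of 29 under median-of-ratios scaling), with a median log2 ratio of 1.26. Tox2 stood at 112 CPM (87.4 to 141) against 3.37 CPM, Bcl6 at 83.7 against 30.0 CPM, and Il21 at 49.6 against 0.832 CPM. Sostdc1 stood at 177 CPM in 7 of the 59 cells, against 1 UMI in 2726 cells. Set beside the 319 spleen cells, 12.2% of 4197 genes were higher in the brain cells and 12.5% lower (15.1% and 8.95% under median-of-ratios scaling), and 3 of 31 helper genes were higher and 13 lower, with 4 and 13 under median-of-ratios scaling. Of 14 stress genes, 9 were higher in the brain cells and 0 lower, with Fos at 1020 against 86.5 CPM. Brain double-negative cells were also higher than spleen double-negative cells in 11 of these 14 genes, where 12.1% of 3807 genes were higher and 5.67% lower, so library and tissue cannot be told apart. Of the 56 brain cells with paired chains, 30.4% had a clonotype found in spleen, and of these 17 cells 5 shared it with a spleen Cxcr5+ Pdcd1+ cell.

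Expanded Cxcr5+ Pdcd1+ cells held more of the helper genes than those found once. The 113 cells of expanded clonotypes had a median of 16 helper genes after thinning, and the 179 cells of clonotypes of 1 spleen cell 12. Of 32 measured helper genes, 10 were higher and 0 lower (8 and 0 under median-of-ratios scaling), where 6.67% of 4171 genes were higher and 2.88% lower (5.22% and 4.38% under that scaling). Sostdc1 stood at 884 CPM in 52 of 113 cells against 181 CPM in 21 of 179 cells, Tigit at 408 against 197 CPM and Il21 at 124 against 64.6 CPM. Il4 stood the other way, at 22.3 against 61.7 CPM, found in 15 and 17 cells. Of 13 measured cell cycle genes, 11 were higher and 0 lower in the expanded cells, and of 13 recirculation genes 9 were lower and 0 higher. The histone genes H3c3, H1f5, H2ac4 and H2ac8 led the ranking, but between 42% and 51.4% of the UMIs of each came from 1 cell. Ccl5 had 0 UMIs in the expanded cells and 321 CPM in the others.

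Within the Cxcr5+ Pdcd1+ cells, the 46 with a brain clonotype were set beside the 246 without one. The medians were 16 and 13 helper genes after thinning. Of 32 measured helper genes, 7 were higher and 1 lower in those with a brain clonotype (4 and 1 under median-of-ratios scaling), where 9.07% of 4255 genes were higher and 4.3% lower (6.04% and 6.79% under that scaling). Il21 stood at 191 CPM in 21 of 46 cells against 70.0 CPM in 51 of 246 cells, a ratio of 2.73 (2.03 to 3.63), and Bcl6 at 224 against 127 CPM. Klf2 stood at 76.4 against 331 CPM. Cxcl10, Ifit1 and Ifih1 had the highest ratios, but 1 cell held 81.0%, 87.5% and 62.5% of their UMIs. Of the 46 cells, 89.1% were also in expanded clonotypes, against 29.3% of the 246, so brain sharing and expansion cannot be told apart here.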

How the data were processed

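Spleen and brain CD4+ T cells were measured by droplet RNA and receptor sequencing, 1 library of each kind per tissue. The RNA matrices hold raw UMI counts, 1 value for each gene in each barcode, as the authors deposited them, made with Cell Ranger 9.0.0 per the file headers. The receptor tables hold read and UMI counts per contig as deposited, with only productive full-length contigs listed. The submitters' processing notes name several mouse genome builds without saying which was used, and coordinates are therefore left out.

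Cells were filtered as stated above. Barcodes with more than 1 TRB or 2 TRA (315 in spleen) were left out as likely doublets, and no caller was run, so doublets with 1 recovered receptor remain. UMIs were summed per group and scaled to CPM. Ratios have exact conditional binomial (Clopper-Pearson) 95% intervals, CPM exact Poisson intervals and shares exact binomial intervals. All cover counting error only, since receptor and RNA counts of 1 library hold no replicate. Intervals on shares of cells treat the cells of a clonotype as independent. A count of 0 was read as up to 3 counts. Clonotypes used 1 TRB and the TRA with most UMIs.

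Named genes were the 12 per direction with the interval bound farthest from 1 among genes of at least 50 CPM, up to 6 per gene list, 6 per direction in side comparisons, and list members. Rankings skipped genes of receptors, immunoglobulins, ribosomes, mitochondria, haemoglobins and sex chromosomes, and unnamed gene models, and some genes are not reported here. The cells, the gene lists and the marker genes were chosen with earlier results of these data known. Genes with near-identical copies (Ly6c1, histone genes) and V segments with such copies have uncertain assignment.

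The call rule was tested on simulated data. Alternatives covered scaling (TMM of edgeR 4.0.16, median of ratios, mean of cells), the CPM minimum, the fold, depth weighting, other comparison cells and stricter cell choices. Python 3.11.15, numpy 2.4.6, scipy 1.17.1, pandas 2.3.3 and matplotlib 3.10.9 were used.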

Additional observations from a re-analysis of the deposited data

Results flagged for a closer look

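Egr1 and Ifng stood on opposite sides in the 2 tissues when Cxcr5+ Pdcd1+ cells were set beside double-negative cells. Egr1, an early response gene, had a ratio of 4.87 (4.32 to 5.48) in spleen and 0.386 (0.326 to 0.453, from 149 UMIs in the 59 cells) in brain, with levels of 128 against 26.3 CPM in spleen and 231 against 599 CPM in brain. Ifng had a ratio of 2.70 (2.25 to 3.22) in spleen and 0.276 (0.206 to 0.361, from 53 UMIs) in brain, with 49.7 against 18.4 CPM and 82.2 against 298 CPM. With 1 library per tissue the difference between tissues was not tested. In both genes the double-negative cells differed more between the libraries than the Cxcr5+ Pdcd1+ cells did.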

How the results depend on the processing

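The count of genes higher in Cxcr5+ Pdcd1+ cells was 955. It was 577 with TMM scaling, 590 with median-of-ratios scaling, 581 with a minimum of 50 CPM, 3559 without a minimum and 432 at a fold of 2. The count of genes lower was 375, and 691, 667, 238, 1645 and 184 under the same settings, and 578 without cells that held B cell UMIs, a setting that leaves 105 Cxcr5+ Pdcd1+ and 1967 double-negative cells. The 2 scalings change only the factor between groups, and the minimum and the fold change which genes can be counted. The median log2 ratio of helper genes ran from 1.54 to 2.22 over all settings. The share in expanded clonotypes was 23.6% at a minimum of 3 cells, 26.9% without cells with Mki67 or Top2a and 45.9% among cells with at least 2 UMIs of each rule gene. The share found in brain was 20.5% among the latter and 3.42% with at least 2 brain cells asked for. Of 1600 log2 ratios of 107 named genes under 15 settings, 1093 stayed within the interval of the value reported and 503 moved beyond it. A ratio reported as a bound was taken as staying when its sign held. The other 4 changed sign, which was recorded only for genes with a reported ratio of at least 1.5-fold in either direction. Without cells with B cell UMIs, the log2 ratio of Ube2c was -2.55, the log2 ratio of Usp18 was 0.095 and the log2 ratio of Itgb1 was -0.19. With paired receptors only, the log2 ratio of Cd74 was 0.36. The cause was not tested. Chosen after seeing the data, median-of-ratios scaling of the further comparisons moved the helper counts by at most 3 genes. No paired analysis was possible because each tissue has 1 library. Depth limits genes under about 1 CPM in the 319 cells and clonotypes of few cells.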
